A study of Mus musculus with 6 samples.

Results

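COUP-TFII binding was examined at 9 genes grouped as Wolffian and Müllerian duct regulators: Pax2, Pax8, Emx2, Lhx1, Gata3, Dach1, Limch1, Gdnf and Ret. The genes were chosen by name. A peak was counted to a gene when that gene was the protein-coding gene nearest to the peak's centre, within 100 kb of the gene body. This took in 9 of the 11175 peaks of the XX list and 4 of the 9846 peaks of the XY list. Because all 4 XY peaks overlapped an XX peak, they lay at 9 of the 13538 distinct places with a peak in either list.

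The study performed chromatin immunoprecipitation and sequencing (ChIP-seq) on E14.5 (embryonic day) mesonephroi from mice of the outbred CD-1 strain. Its 6 samples were 2 of COUP-TFII ChIP from XX embryos, 2 of COUP-TFII ChIP from XY embryos, made with the same rabbit antibody, and 2 of input pooled from both sexes. All chromatin came from pools of whole mesonephroi of unmanipulated embryos, so epithelium of the ducts and the mesenchyme around them were not separated, and without expression values the tissue label was not checked against marker genes. The authors deposited 1 peak list per sex over its 2 replicates, with a position for each peak but no height or p-value. No value below therefore has a spread between replicates, the reads behind each list are unknown, and a place missing from a list may have lain below the authors' threshold.

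COUP-TFII, the product of Nr2f2, is an orphan nuclear receptor found mainly in mesenchyme, and in mice its loss from the mesonephric mesenchyme leaves Wolffian ducts in female embryos. The Wolffian duct arises first, from the intermediate mesoderm, and becomes the epididymis and vas deferens. The Müllerian duct grows along it and becomes the oviduct, uterus and upper vagina. Pax2 and Pax8 encode paired-box factors that specify the duct lineage. Lhx1, a LIM homeobox gene, Gata3, a zinc finger gene downstream of the Pax factors, and Emx2, a homeobox gene, are needed for growth and upkeep of the duct epithelium. Gdnf is secreted by mesenchyme and signals through Ret, a receptor tyrosine kinase on the duct.

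Promoter windows of genes at these places are shown first, since the peaks themselves carried no sequence in the files. Each is a RefSeq window of 300 bases on GRCm38.p6, from 250 bases before to 50 after a transcription start, printed 5′ to 3′ on the strand of transcription. The windows of Limch1, Emx2 and Dach1 are those of the members with a peak just inside the gene, and that of the noncoding gene Gm39769 lay beside a shared peak upstream of Pax8. The window of Gdnf is shown because it holds the hexamer AGGTCA, the core element bound by many nuclear receptors, in capitals. Inner windows of Limch1 that also hold it are not printed.
Limch1 (chr5:66745639-66745938, plus strand): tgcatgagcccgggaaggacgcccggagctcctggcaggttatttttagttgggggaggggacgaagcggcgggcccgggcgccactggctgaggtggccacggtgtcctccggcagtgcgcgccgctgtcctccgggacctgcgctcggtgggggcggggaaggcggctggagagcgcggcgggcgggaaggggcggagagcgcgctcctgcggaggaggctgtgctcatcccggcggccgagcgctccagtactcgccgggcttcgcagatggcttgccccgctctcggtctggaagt
Emx2 (chr19:59458440-59458739, plus strand): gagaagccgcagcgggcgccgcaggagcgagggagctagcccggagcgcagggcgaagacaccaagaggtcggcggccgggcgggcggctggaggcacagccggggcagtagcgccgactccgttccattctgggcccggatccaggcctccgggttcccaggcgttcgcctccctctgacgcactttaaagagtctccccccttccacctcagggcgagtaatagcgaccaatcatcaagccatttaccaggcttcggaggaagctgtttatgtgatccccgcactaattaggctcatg
Dach1 (chr14:98169716-98170015, minus strand): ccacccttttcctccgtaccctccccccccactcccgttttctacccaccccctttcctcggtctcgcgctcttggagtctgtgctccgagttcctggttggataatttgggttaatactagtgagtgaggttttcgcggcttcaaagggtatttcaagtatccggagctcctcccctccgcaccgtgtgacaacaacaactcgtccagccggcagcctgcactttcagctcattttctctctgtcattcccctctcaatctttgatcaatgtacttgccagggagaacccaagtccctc
Gdnf (chr15:7809798-7810097, plus strand): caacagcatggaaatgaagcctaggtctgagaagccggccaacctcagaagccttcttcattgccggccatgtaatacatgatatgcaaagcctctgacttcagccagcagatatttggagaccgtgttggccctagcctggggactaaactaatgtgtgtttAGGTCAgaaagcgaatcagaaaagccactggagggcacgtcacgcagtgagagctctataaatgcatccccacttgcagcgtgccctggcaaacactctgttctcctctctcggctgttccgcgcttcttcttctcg
Gm39769 (chr2:24521985-24522284, plus strand): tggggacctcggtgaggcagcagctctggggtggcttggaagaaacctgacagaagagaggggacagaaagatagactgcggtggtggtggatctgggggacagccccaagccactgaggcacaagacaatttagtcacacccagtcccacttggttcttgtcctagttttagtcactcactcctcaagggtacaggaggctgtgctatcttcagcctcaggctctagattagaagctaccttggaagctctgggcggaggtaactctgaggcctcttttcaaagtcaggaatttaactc

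No member's promoter window was touched by a peak. The table of promoters held 13 windows for 8 of the 9 members and none for Ret. None of the 13 overlapped an XX or an XY peak, while XX peaks overlapped 4760 and XY peaks 4732 of all 32851 windows. The nearest of the 13 was that of Limch1, which ended 77 bases before an XX peak. Measured to the XX peaks, the window of Gm39769 lay 157 bases away, that of Emx2 784 bases and that of Dach1 1418 bases. The printed window of Gdnf lay 8.612 kb from the Gdnf peak.

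AGGTCA, sought as these exact letters on both strands, occurred in 3 of the 13 windows, or 23.1%. It occurred in 16.3% of all windows, noncoding genes included, and in 14.7% of the windows of protein-coding genes. In Gdnf its first base lay at -87, counted from the start. The other 2 matches were in windows of Limch1 starts inside the gene, 110.903 kb and 221.862 kb from the Limch1 peak. One of these also matched the longer AAGGTCA, which contains AGGTCA and was found in 4.72% of all windows. No member window held a direct repeat of AGGTCA with 1 base between the copies. This occurred in 0.0396% of all windows and in 0.0470% of those of protein-coding genes. Nor did a member window hold a pair of AGGTCA in any orientation with at most 8 bases between them. Such pairs occurred in 0.225% of all windows and in 0.183% of those of protein-coding genes. The printed windows of Limch1, Emx2 and Dach1 held no AGGTCA. The share of G and C was 72.7% in the printed Limch1 window, 64.3% in that of Emx2, 54.0% in Dach1, 53.0% in Gm39769 and 51.7% in Gdnf, against a median of 52.7% over all windows.

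The peaks lay at 5 of the 9 genes in the XX list and at 3 in the XY list. Over all 21887 protein-coding genes, 36.9% had at least 1 XX peak and 35.0% at least 1 XY peak. Pax8, Emx2 and Dach1 had a shared peak, meaning an XX and an XY peak with at least 1 base in common, and 28.2% of all protein-coding genes had one. Limch1 and Gdnf had an XX peak and no XY peak, which held for 7.12% of all genes. Pax2, Lhx1, Gata3 and Ret had no peak in either list, as did 57.8% of all genes. Of the 5 transcription factor genes of the early duct epithelium, Pax8 and Emx2 had peaks and Pax2, Lhx1 and Gata3 had none.

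**Figure D1:**
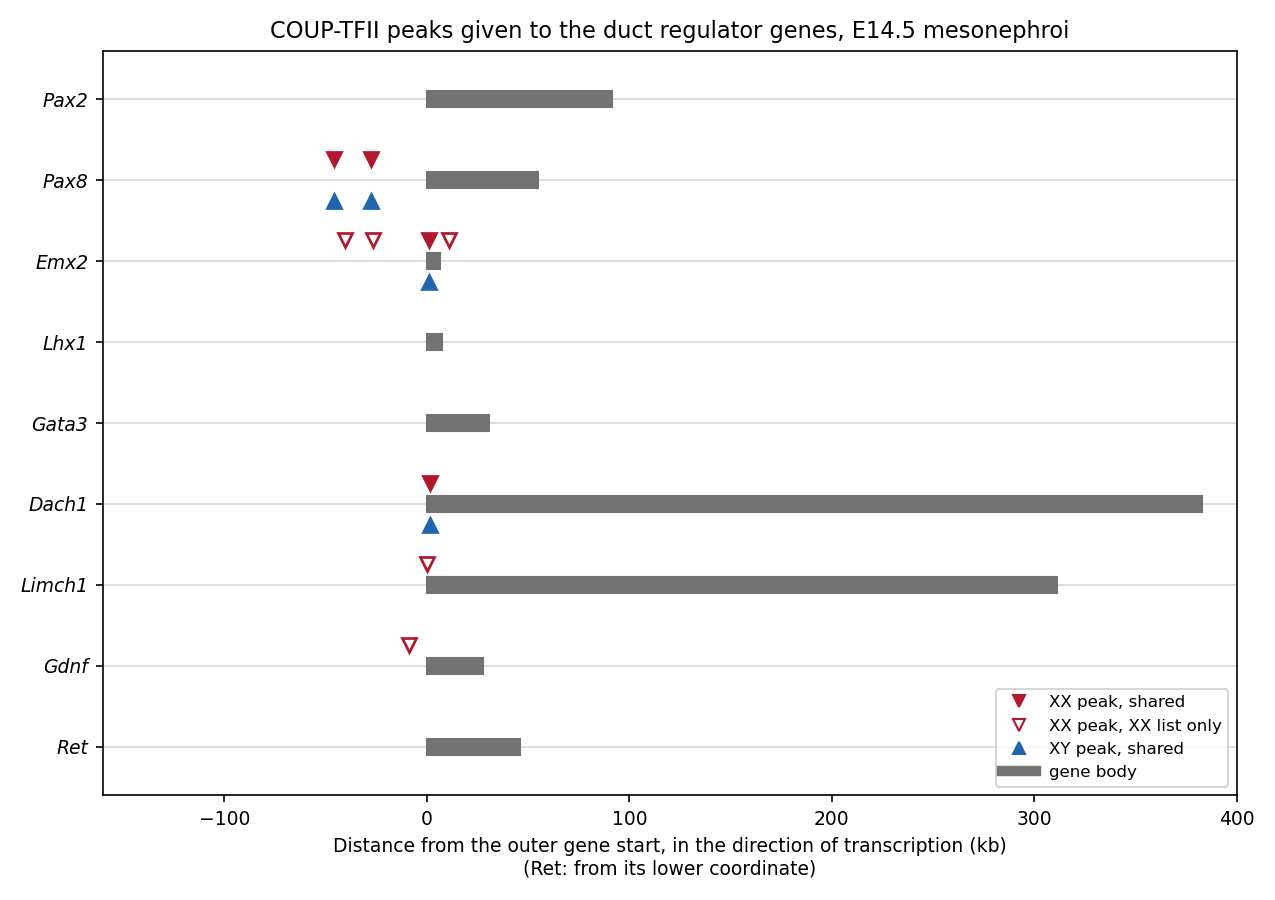
Positions of the peaks given to each of the 9 genes, as the distance in kb from the outer gene start in the direction of transcription. Red triangles above each gene body are XX peaks, blue triangles below are XY peaks, and open triangles are in the XX list only. Pax8 shows 2 shared peaks before its start, Emx2 shows 4 XX peaks and 1 XY peak, and Pax2, Lhx1, Gata3 and Ret show none.

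Pax8 (gene 18510, chromosome 2, 24420551 to 24475599, minus strand) had 2 XX and 2 XY peaks, and both places were shared. Its nearer XX peak, at 24502985 to 24503284, was centred 27.5 kb upstream of the gene's start. The matching XY peak, at 24502991 to 24503290, had its centre 6 bases away and shared 294 bases with it. The farther XX peak, at 24521528 to 24521827, was centred 46.1 kb upstream, and its XY partner at 24521447 to 24521746 lay 81 bases away with 219 bases in common. No peak of either list lay inside Pax8 or within 27 kb of it, so both places were distant from the gene.

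Noncoding genes lay closer to both places than Pax8 did. The nearer peak was 7.417 kb from the pseudogene Gm13418. The farther one was 558 bases from the start of Gm39769, a long noncoding RNA gene that runs away from Pax8 (24522235 to 24585543). Another place in this interval, an XX-only peak at 24564148 to 24564447 inside Gm39769, lay 88.7 kb from Pax8 but 39.6 kb from the calcium channel gene Cacna1b, to which it was given. Exactly the same numbers of XX, XY and shared peaks as at Pax8 were found at 439 protein-coding genes, 2.01% of all.

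Emx2 (gene 13797, chromosome 19, 59458690 to 59465357, plus strand) had the most peaks of the 9 genes, with 4 in the XX list and 1 in the XY list. The shared place lay inside the gene: the XX peak at 59459524 to 59459823 was centred 983 bases past the start, and the XY peak at 59459505 to 59459804 was centred 964 bases past it. They had 281 bases in common. The other 3 places were in the XX list only. Centred 40.5 kb upstream of the start was a peak at 59418088 to 59418387, and 26.4 kb upstream was one at 59432123 to 59432422. The last, at 59469286 to 59469585, lay 4.078 kb beyond the gene's far end.

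The upstream pair flanked one end of Emx2os, the antisense RNA gene whose other end lies beside the Emx2 start (59425104 to 59458635). The peak 26.4 kb upstream lay inside Emx2os, and the one 40.5 kb upstream lay 6.867 kb beyond it. Apart from Emx2 itself, the protein-coding gene nearest to all 4 places was Pdzd8, 72.5 kb from the outermost. At least 3 XX-only peaks were given to 51 protein-coding genes, or 0.233%, and 8 genes, Emx2 included, had exactly 4 XX peaks, 1 XY peak and 1 shared peak. The peaks are marks in 2 lists without signal values, so the absence of XY peaks at these 3 places was not tested as a difference between the sexes.

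**Figure D2:**
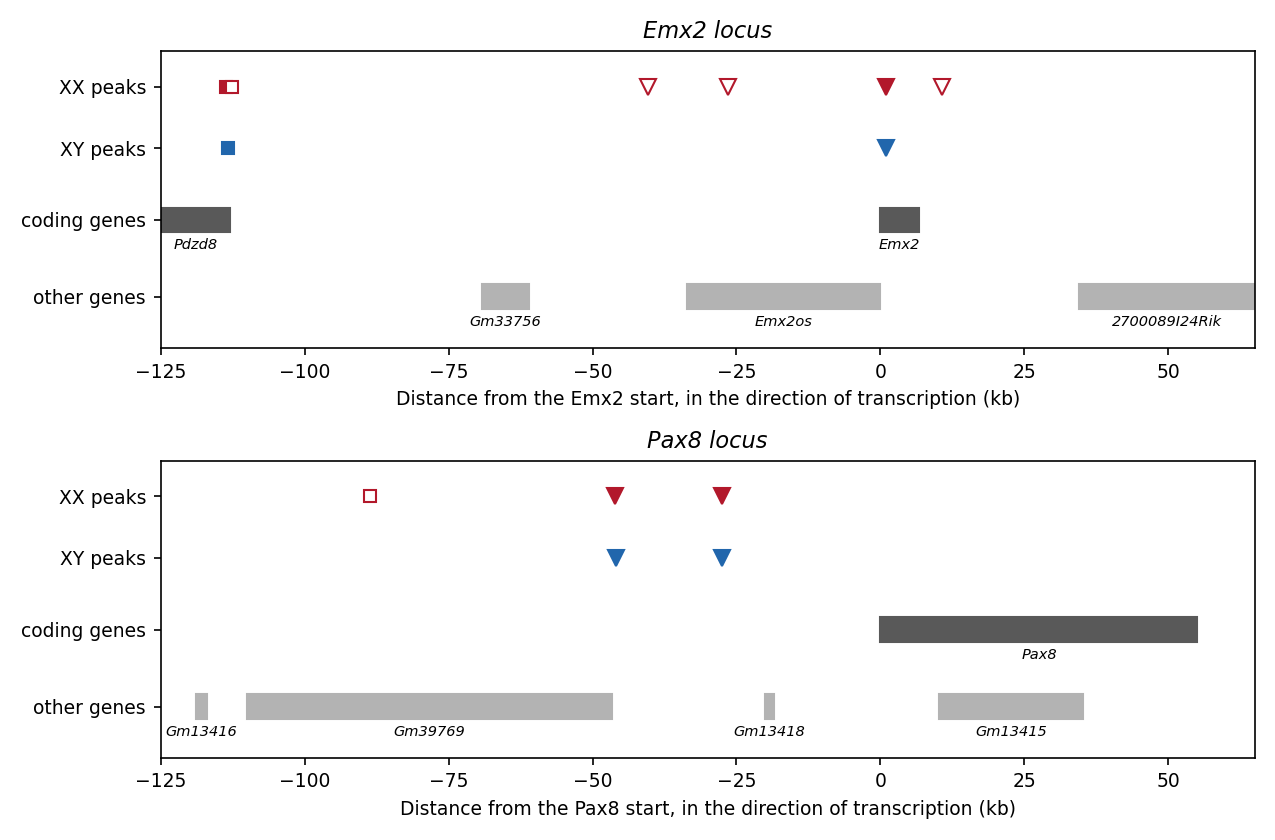
Peaks and annotated genes around the starts of Emx2 (upper panel) and Pax8 (lower panel), in kb from each start in the direction of transcription. Triangles are peaks given to the named gene and squares are peaks given to another coding gene, filled where shared and open where in the XX list only. At Emx2 the 3 open triangles have no XY peak under them, and at Pax8 both triangles do.

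Dach1 and Limch1 are long genes, and each had its 1 peak close to the start. Dach1, which encodes a transcriptional cofactor needed together with Dach2 for the Müllerian duct in mice, spans 382.9 kb (gene 13134, chromosome 14, 97786846 to 98169765, minus strand). Its XX peak at 98167998 to 98168297 was centred 1.618 kb past the start. The XY peak at 98168100 to 98168399 was centred 1.516 kb past it, and 198 bases were common to both. The rest of Dach1 held no peak of either list, nor did the first 100 kb on either side. The counts of Dach1, with 1 XX, 1 XY and 1 shared peak, were those of 4268 protein-coding genes, or 19.5%.

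Limch1, which encodes a cytoskeletal protein with LIM and calponin homology domains, spans 311.3 kb (gene 77569, chromosome 5, 66745889 to 67057159, plus strand). It had 1 XX peak, at 66746016 to 66746315, covering bases 127 to 426 past the start. Of the 9 places this was the closest to a gene start, with its centre 276 bases away. The XY list had no peak within 100 kb of Limch1. Its nearest one, at 66620040 to 66620339, lay 125.7 kb upstream and was given to Apbb2, where the XX list had an overlapping peak.

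The ligand Gdnf (gene 14573, chromosome 15, 7810048 to 7837580, plus strand) had 1 XX peak, at 7800886 to 7801185, centred 9.013 kb upstream of the outer start. It overlapped no annotated gene, and the next protein-coding gene, Wdr70, was 72.0 kb from it. In the XY list the peak nearest to Gdnf lay 271.7 kb downstream and was given to Nup155. The receptor gene Ret (gene 19713, chromosome 6, 118151748 to 118197744) had no peak in either list. The nearest XX peak was 222.0 kb from Ret and given to Bms1, and the nearest XY peak was 234.7 kb away on the other side and given to Hnrnpf. Exactly 1 XX peak and no XY peak, as at Limch1 and Gdnf, was the count of 1373 protein-coding genes, or 6.27%.

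Pax2, Lhx1 and Gata3 also stood apart from the nearest peaks, by differing distances. At Pax2 (gene 18504, chromosome 19, 44746601 to 44838269, plus strand) the nearest peaks lay inside the neighbouring gene Slf2, 93.0 kb downstream in the XX list (44931116 to 44931415) and 92.7 kb downstream in the XY list (44930823 to 44931122). These peaks shared only 7 bases. At Gata3 (gene 14462, chromosome 2, 9857078 to 9887953, minus strand) the nearest peaks were 160.6 kb upstream in the XX list and 160.4 kb upstream in the XY list, at Taf3. At Lhx1 (gene 16869, chromosome 11, 84517975 to 84525534, minus strand) they were 293.9 kb upstream in each list, at Mrm1. Lhx1 has a close coding neighbour in Aatf, 4.391 kb from it, and Gata3 has Taf3 at 26.6 kb, so part of the surrounding sequence counts to those genes.

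Genes differ in the stretch of genome that counts to them under this rule. Whether the number of peaks follows the length of the stretch was not tested. Over the 9 genes these stretches came to 1.99 Mb, from 110 kb at Lhx1 to 583 kb at Dach1, out of 1909 Mb for all protein-coding genes. Per Mb, the 9 genes had 4.52 XX peaks, against 5.47 for all protein-coding genes. For XY peaks the values were 2.01 and 4.91 per Mb, and for shared peaks 2.01 and 3.74 per Mb. Emx2 had 24.5 XX and 6.13 XY peaks per Mb and Pax8 had 16.0 of each, while Dach1 had 1.72 of each. Each of these rests on 1 to 4 peaks.

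Of the 9 XX peaks, 4 were shared, or 44.4% (95% exact Clopper-Pearson interval 13.7 to 78.8), against 67.0% of the 11166 XX peaks elsewhere (66.1 to 67.9). Of the 4 XY peaks all were shared, with an interval of 39.8 to 100%, against 76.0% of the 9842 XY peaks elsewhere (75.1 to 76.8). These intervals cover counting error only. The 5 XX-only places belonged to 3 genes, 3 of them to Emx2, so they are not independent of one another. At least 1 XX-only peak was found at 13.2% of all protein-coding genes and at least 1 XY-only peak at 9.55%, the second at none of the 9 genes.

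Most XX peaks of the duct regulators lay outside the gene to which they were given. Of the 9 XX peaks, 6 were over 1 kb outside the gene, or 66.7% (29.9 to 92.5). Elsewhere this held for 1884 of the 10441 XX peaks that were given to a gene. Of all 11166 elsewhere it was 16.9% (16.2 to 17.6), with peaks lacking a coding gene within 100 kb counted as not outside. Within 1 kb of either boundary of a coding gene, start or far end, were 2 of 9, against 52.7% elsewhere. These were the peaks just past the starts of Limch1 and Emx2. Within 1 kb of a coding start, the share elsewhere was 48.3%, where the starts were those of the 17492 coding genes with a promoter window. In the XY list 2 of the 4 peaks, both at Pax8, were over 1 kb outside the gene, with an interval of 6.76 to 93.2%. Elsewhere this held for 1329 of the 9380 XY peaks that were given to a gene, or 13.5% of all 9842. The 6 XX peaks came from Pax8, Emx2 and Gdnf, so they are not independent of one another, as the interval takes them to be. The median stretch of genome that counts to a gene was 0.1455 Mb for the 9 genes and 0.045 Mb for all protein-coding genes. Its bearing on these shares was not tested. No test was made because the genes were chosen with earlier results of these data known.

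**Figure D3:**
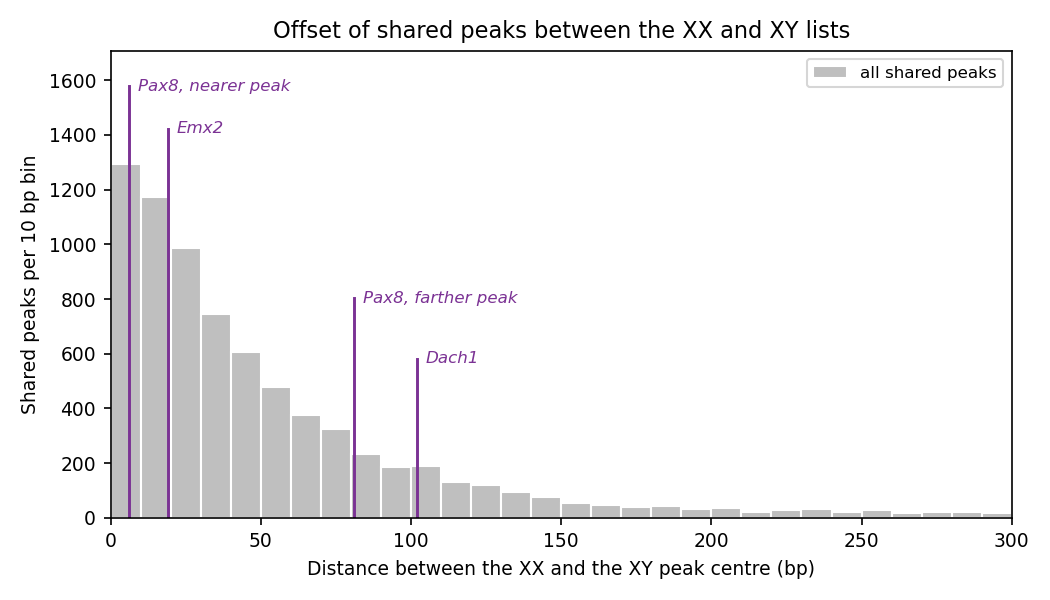
Distance in bp between the XX and the XY peak centre for all 7483 shared peaks (grey bars, number per 10 bp) and for the 4 shared places of the duct regulators (purple lines, whose heights carry no value). The nearer Pax8 place and Emx2 lie at 6 and 19 bp, below the median of 33 bp, and the farther Pax8 place and Dach1 at 81 and 102 bp.

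The XX and XY centres of the 4 shared places lay 6 to 102 bases apart. The offset of 6 bases at the nearer Pax8 place was larger than that of 10.3% of all shared peaks, and the 19 bases at Emx2 were larger than that of 31.5%. The farther Pax8 place, with 81 bases, and Dach1, with 102, were in the wider part, above 80.4% and 86.1% of shared peaks.

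Other genes of the ducts were counted by the same rule, in 6 groups that hold 56 genes. These lists, too, were chosen with earlier results of these data known. Of these, 23 had an XX peak (41.1%, against 36.9% of all protein-coding genes), 24 an XY peak (42.9% against 35.0%) and 14 a shared peak (14 of 56 against 28.2%). An XX peak without an XY peak was found at 6 of the 56, against 7.12% of all protein-coding genes. The reverse was found at 7 of the 56, and its share over all protein-coding genes was not computed. No peak in either list was found at 26 of the 56, against 57.8% of all protein-coding genes. Together the 56 genes had 32 XX and 28 XY peaks, of which 18 places were shared.

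Of 10 genes around GDNF and RET signalling, 7 had an XX peak, 7 an XY peak and 4 a shared one. These shares of 70.0%, 70.0% and 40.0% rest on few genes and stand beside 36.9%, 35.0% and 28.2% of all protein-coding genes. Spry1, an intracellular inhibitor of RET signalling, had 3 XX and 2 XY peaks, and its 2 shared peaks lay inside the gene, the first within 366 bases of an end. Etv4, a transcription factor gene induced by RET, had 2 XX peaks and 1 XY peak, and the shared place lay 44.9 kb outside. The Wnt11 peak, shared, lay 19.7 kb outside that gene, which is expressed at ureteric bud tips and promotes Gdnf expression, and the shared peak of Sox8 lay 234 bases from the gene in the XX list. No peak was given to Gfra1, the co-receptor of Ret. Gdnf, Ret and Gfra1 together had 1 peak, the XX peak at Gdnf, while 57.8% of all protein-coding genes had no peak in either list.

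Among 22 further transcription factor genes of the ducts and intermediate mesoderm, 7 had an XX peak, 7 an XY peak and 4 a shared one. That made 31.8%, 31.8% and 18.2%, beside 36.9%, 35.0% and 28.2% of all protein-coding genes. Grhl2, Osr2 and Tcf21 were among those 4, with 1 shared peak each. The peak of Tcf21, a basic helix-loop-helix factor of urogenital mesenchyme, lay inside the gene, that of Osr2 23.3 kb outside and that of Grhl2 97.0 kb outside. Dach2 and Emx1, the paralogs of Dach1 and Emx2, had no peak, and neither did Wt1, Sall1 and Gata2. They were among 12 of the 22 genes without a peak in either list, beside 57.8% of all protein-coding genes. Of 5 WNT genes of the ducts, Ctnnb1, which encodes beta-catenin, had 1 XY-only peak and Wnt4, Wnt5a, Wnt7a and Wnt9b had none. These are few genes, and of all protein-coding genes 9.55% had at least 1 XY-only peak and 57.8% had no peak.

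Of 9 genes of Müllerian duct regression, 6 had an XX peak, 5 an XY peak and 4 a shared one. These shares of 66.7%, 55.6% and 44.4% rest on few genes and stand beside 36.9%, 35.0% and 28.2% of all protein-coding genes. Bmpr1a, a type I receptor in anti-Müllerian hormone signalling, had 3 shared peaks, all inside the gene. Sp7, a zinc finger factor gene, had 2 shared peaks, and Acvr1, another type I receptor, and Mmp2, a matrix protease gene, had 1 each. The hormone gene Amh and its type II receptor gene Amhr2 had none. Among steroid receptor genes, Esr1 had 3 XX peaks and 1 XY peak, all inside the gene, and Pgr had none. Of 7 genes of duct epithelium, Krt18 had 1 shared peak, Krt8 and Foxj1 had 1 XY-only peak each, and Cdh1, Cdh16, Epcam and Calb1 had none. No peak was thus given to 4 of these 7 genes and to 1 of the 3 steroid receptor genes. Over all protein-coding genes, 57.8% had no peak in either list and 9.55% had at least 1 XY-only peak.

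**Figure D4:**
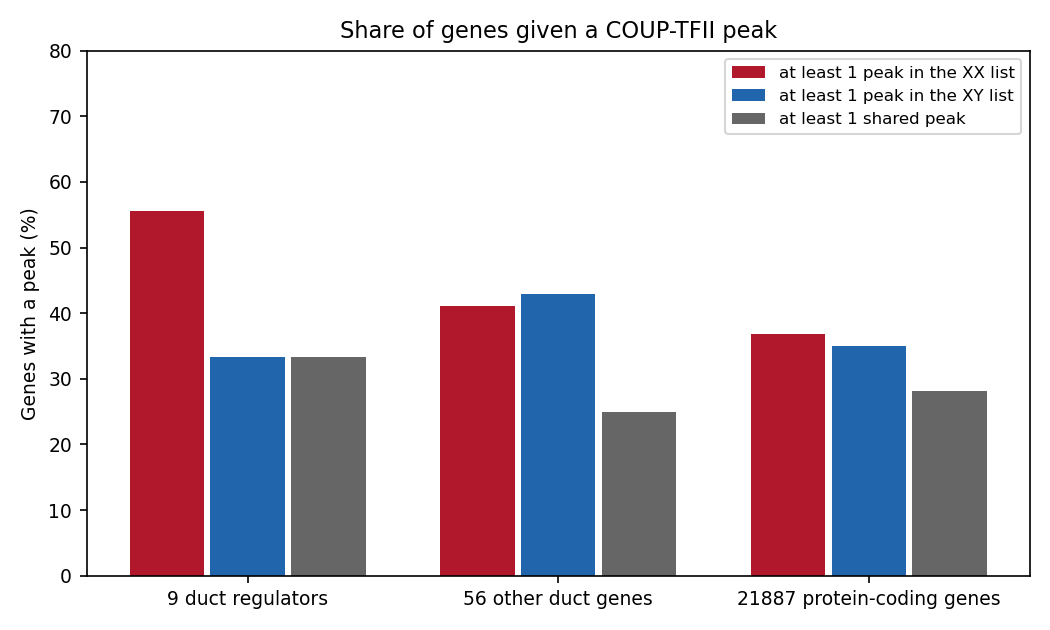
Share of genes, in percent, with at least 1 XX peak (red), at least 1 XY peak (blue) and at least 1 shared peak (grey), for the 9 duct regulators, the 56 other duct genes and all 21887 protein-coding genes. The 9 duct regulators stand at 55.6%, 33.3% and 33.3%, where 1 gene makes up 11.1%, and all protein-coding genes at 36.9%, 35.0% and 28.2%.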

How the data were processed

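The authors deposited 1 list of COUP-TFII ChIP-seq peaks per sex, which the labels attach to both replicates. Upstream, the submitters' processing notes list mm10, HOMER 4.10.3, Bowtie 1.2, bedtools 2.24.0, Picard and cutadapt, but no role for any of them. The threshold for a peak, and the way replicates entered a list, are not given in the sources used. Every peak is 300 bp wide, and positions are counted from 1. Input samples and signal tracks were not used here. The labels' extraction text speaks of RUNX1 and fetal ovaries, unlike the titles, tissue and antibody, which were followed.

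Genes came from RefSeq on GRCm38.p6, the assembly of mm10 (21887 protein-coding genes on the autosomes, X and Y). As a check of the build, 43.6% of XX peaks lay within 500 bp of a coding gene's start or far end. Once moved by 10 kb, 3.10% did. Each peak went to the protein-coding gene body nearest to its centre within 100 kb (inside is 0, ties to the nearer end). Strand came from RefSeq promoter windows, which 17492 of these genes have. Distances of the peaks of the 9 genes from a gene's start were measured from the outer end of the gene body. For the share of peaks within 1 kb of a coding start, the starts of the promoter windows were used. Stretches were measured every 500 bp. Overlaps were checked with bedtools 2.31.1, and assignment, overlap and motif search were tested on simulated data. Shares have exact 95% intervals (SciPy 1.17.1). No test was run: the members and gene lists were chosen with earlier results of these data known. All 9 members are named, and of each group of other duct genes up to 4 with most shared peaks; further genes are named as examples after their values were seen, and some genes of these groups are not reported here. The alternatives were other definitions of a shared peak and of the gene a peak is given to.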

Additional observations from a re-analysis of the deposited data

How the results depend on the processing

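The counts at the 9 genes (9 XX, 4 XY, 4 shared, 5 XX-only and 0 XY-only peaks, and 3 genes with a shared peak) changed with the distance allowed between a peak and its gene and with the kinds of gene that a peak could be given to. With peaks within 10 kb only, there were 5 XX, 2 XY, 2 shared and 3 XX-only peaks, since both Pax8 places and the 2 upstream Emx2 places were left out. With the nearest gene of any kind in place of coding genes, the same 4 places went to noncoding genes, and the counts were again 5, 2, 2 and 3. With shared peaks defined by centres within 100 bp, the Dach1 pair, 102 bp apart, was no longer shared, which gave 1 XY-only peak. In the other 39 combinations of a count and an alternative, counts stayed within 1.5 times those reported: the highest were 11 XX and 5 XY peaks, when every peak within 100 kb of a member was counted. No paired analysis was possible because each sex has 1 peak list over its 2 replicates, and for the same reason no replicate could be left out. Depth could not be assessed, since the lists carry no read counts.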

Other observations

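Over a wider span, peaks of any assignment lay within 500 kb of each of the 9 gene bodies. Pax2 had 15 XX and 15 XY peaks in that span and Pax8 had 6 of each. Emx2 had 8 XX and 4 XY peaks, Ret 8 XX and 4 XY peaks, and Gata3 4 XX and 2 XY peaks, the widest gaps between the lists in proportion among the 9 genes. At Lhx1 the numbers were 8 XX and 7 XY peaks, at Limch1 7 XX and 6 XY, and at Gdnf 5 XX and 4 XY. Around Dach1 the peak beside its start, 1 in each list, was the only one within 500 kb. The whole XX list is also the longer one, with 11175 peaks against 9846. Most of the peaks counted here belong to other genes. The counts were not set beside those around other coding genes and were not tested.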
